A study of Mus musculus with 12 samples.

Results

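The REG (regenerating islet-derived) genes encode small secreted proteins with the fold of C-type lectins. The family was taken as 7 mouse genes, *Reg1*, *Reg2*, *Reg3a*, *Reg3b*, *Reg3d*, *Reg3g* and *Reg4*, out of 38924 gene identifiers counted in 12 pancreatic neuroendocrine tumors (PanNETs). The members were chosen by their own measured levels in these tumors, since the higher *Reg* counts in the treated groups were known when the family was picked, so the differences between groups that follow are descriptions. No p-value of a member is printed, and counts of members past the threshold stand only beside the same share over all genes. All 7 genes were found among the identifiers.

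The tumors came from RIP1Tag2 mice of the C57Bl6 strain. In this transgenic line the rat insulin promoter drives the SV40 T antigens in pancreatic beta cells, which then form insulinomas within an otherwise intact pancreas, so a dissected tumor can carry neighboring acinar tissue. The 3 groups of 4 tumors had received saline (control), sunitinib alone, or rapamycin together with sunitinib (R+S), in each case from 15.5 weeks of age and for 4 days. Sunitinib inhibits the VEGF and PDGF receptor kinases and was given to disrupt tumor vessels, and rapamycin inhibits mTOR. There was no group on rapamycin alone. Tumors are named here by group and by the number in the labels (control 1 to 4, sunitinib 5, 6, 8 and 12, R+S 4, 5, 7 and 10). The sample titles also carry a code: 1 code for all control tumors, 1 for sunitinib 5, 6 and 8, another for sunitinib 12, and 3 for the R+S tumors, of which 5 and 7 share 1. No code occurs in more than 1 group, so code and treatment cannot be told apart, and the labels do not say whether a code is a mouse. If it is, tumors under 1 code are not independent, and the standard errors below measure the spread between tumors.

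Counts per tumor summed to between 31872342 and 44215054. The beta-cell markers *Ins1*, *Ins2*, *Iapp* and *Chga* were present in all 12 tumors. Sunitinib 6 stood apart, with an *Ins2* level of 783.8 CPM (counts scaled to library size) against 10612 to 43805 in the other 11 tumors. It also had the highest sum of digestive enzyme transcripts, at 47025 CPM. Control 1 stood apart among the control tumors, with 124.7 CPM of summed digestive enzyme transcripts against 11.3 to 17.2 in the other 3. Its *Ins1* level, 3835 CPM, was below the 8856 to 11503 CPM of those 3. Values without control 1 or sunitinib 6 are given beside the fitted changes of the REG genes and beside some of the others. Levels are CPM on library sizes scaled by TMM, and differences between groups are log2 fold changes fitted by edgeR with their standard errors (SE).

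REG proteins were first studied in regenerating islets and in pancreatitis. In the healthy pancreas they are mainly products of acinar cells, the exocrine cells that also make the digestive enzymes. Acinar enzyme genes are switched on by the PTF1 complex, in which PTF1A binds an E box and RBPJL binds a neighboring TGGGAAA element. The Reg3 genes are in addition classical targets of STAT3 downstream of IL-6 and IL-22, are known as acute-phase genes of the injured pancreas (*Reg3b* is also called pancreatitis-associated protein) and act in the intestine as bactericidal lectins. EXTL3 is a proposed receptor for REG proteins.

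Apart from *Reg4*, at chr3:98222156-98236748 on the plus strand of GRCm38, the members lie side by side on chromosome 6, from *Reg3b* (chr6:78370657-78373466, plus strand) through *Reg3d* (chr6:78375874-78378865, minus), *Reg3a* (chr6:78380709-78383827, plus), *Reg2* (chr6:78395623-78408106, plus) and *Reg1* (chr6:78422711-78428667, plus) to *Reg3g* (chr6:78466269-78468872, minus). All are protein-coding. Coordinates span each whole gene. Their coding sequences fall into a *Reg1* and *Reg2* pair with 82.6% identical bases and a Reg3 group, in which *Reg3a* and *Reg3b* shared 77.2%, *Reg3b* and *Reg3g* 76.4% and *Reg3a* and *Reg3g* 73.9%. *Reg3d* shared 66.6 to 70.35% with the other Reg3 genes. It shared 67.0% with *Reg1* and 66.8% with *Reg2*, so by this measure it was no closer to *Reg3g* (66.6%) than to them. No stretch of 50 bases was common to the transcripts of any pair of members, so reads of that length or longer can be assigned to 1 member. Stretches shared with other genes made up 3.65% of the 50-base words of *Reg1* and 11.3% of those of *Reg2*, and reads there were not counted if they aligned to several places.

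The promoters of the 2 most abundant members and of the 2 Reg3 genes that moved most closely together are shown to place the acinar and STAT elements named above. They are the 250 bases before the RefSeq start on GRCm38.p6, written in the direction of the gene, with searched motifs in capitals. The E box searched was CACCTG, on both strands. The element that RBPJL binds was searched as TGGGAAA on both strands, the STAT palindrome as TTCNNNGAA on both strands, and the TATA box as TATAAA on the strand of the gene only.
Reg1 promoter (chr6:78425733-78425982, plus strand): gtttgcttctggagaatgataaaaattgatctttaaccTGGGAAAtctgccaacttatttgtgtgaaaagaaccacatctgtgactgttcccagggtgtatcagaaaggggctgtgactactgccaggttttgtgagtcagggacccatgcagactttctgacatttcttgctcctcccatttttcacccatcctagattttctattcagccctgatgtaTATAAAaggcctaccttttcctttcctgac
Reg2 promoter (chr6:78404905-78405154, plus strand): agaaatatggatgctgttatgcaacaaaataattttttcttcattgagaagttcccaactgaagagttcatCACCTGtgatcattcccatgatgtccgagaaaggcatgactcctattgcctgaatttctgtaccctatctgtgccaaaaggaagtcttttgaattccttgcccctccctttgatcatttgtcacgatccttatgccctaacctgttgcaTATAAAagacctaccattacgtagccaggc
Reg3a promoter (chr6:78380459-78380708, plus strand): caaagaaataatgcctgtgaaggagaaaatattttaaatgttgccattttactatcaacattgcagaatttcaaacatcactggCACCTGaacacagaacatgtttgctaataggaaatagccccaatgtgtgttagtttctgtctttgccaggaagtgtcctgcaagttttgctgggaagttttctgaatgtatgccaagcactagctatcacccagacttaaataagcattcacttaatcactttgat
Reg3b promoter (chr6:78370635-78370884, plus strand): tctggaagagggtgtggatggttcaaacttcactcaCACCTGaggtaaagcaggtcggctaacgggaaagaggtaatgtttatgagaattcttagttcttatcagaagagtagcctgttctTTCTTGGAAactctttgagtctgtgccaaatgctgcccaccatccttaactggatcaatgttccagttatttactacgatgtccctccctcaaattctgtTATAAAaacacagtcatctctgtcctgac

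Among these, *Reg1* held TGGGAAA at -212 and TATAAA at -30. *Reg2* held CACCTG at -179 and TATAAA at -30. *Reg3a* held CACCTG at -166 and none of the other motifs. *Reg3b* held CACCTG at -214, the STAT palindrome at -129 and TATAAA at -29. Over the family, CACCTG was found before 5 members (*Reg2*, *Reg3a*, *Reg3b*, *Reg3d* and *Reg4*) and in 17.2% of 32851 promoters of this length. TGGGAAA was found before 3 members (*Reg1*, *Reg3d* and *Reg3g*) and in 6.82% of promoters, TTCNNNGAA before 2 (*Reg3b* and *Reg3d*, where it overlaps a TGGGAAA match) and in 7.02%, and TATAAA before 4 (*Reg1*, *Reg2*, *Reg3b* and *Reg3g*) and in 7.59%. These matches are descriptions of the sequence only.

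The REG genes were close to undetected in control tumors and abundant after either treatment. *Reg1*, the most abundant member, had 192, 12, 3 and 12 counts in control tumors 1 to 4. It had 1042, 2083, 1323 and 486.8 CPM in sunitinib tumors 5, 6, 8 and 12, and 407.8, 415.6, 208.8 and 605.9 CPM in R+S tumors 4, 5, 7 and 10. Every treated tumor thus lay far above every control tumor, of which the highest, control 1, had 4.11 CPM. The means were 1.21 ± 1.94 CPM in control, 1234 ± 664 CPM in sunitinib and 409.5 ± 162 CPM in R+S tumors (SD, n = 4 each). At most, in sunitinib 6, the family took 0.612% of all counts of the tumor.

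**Figure D1:**
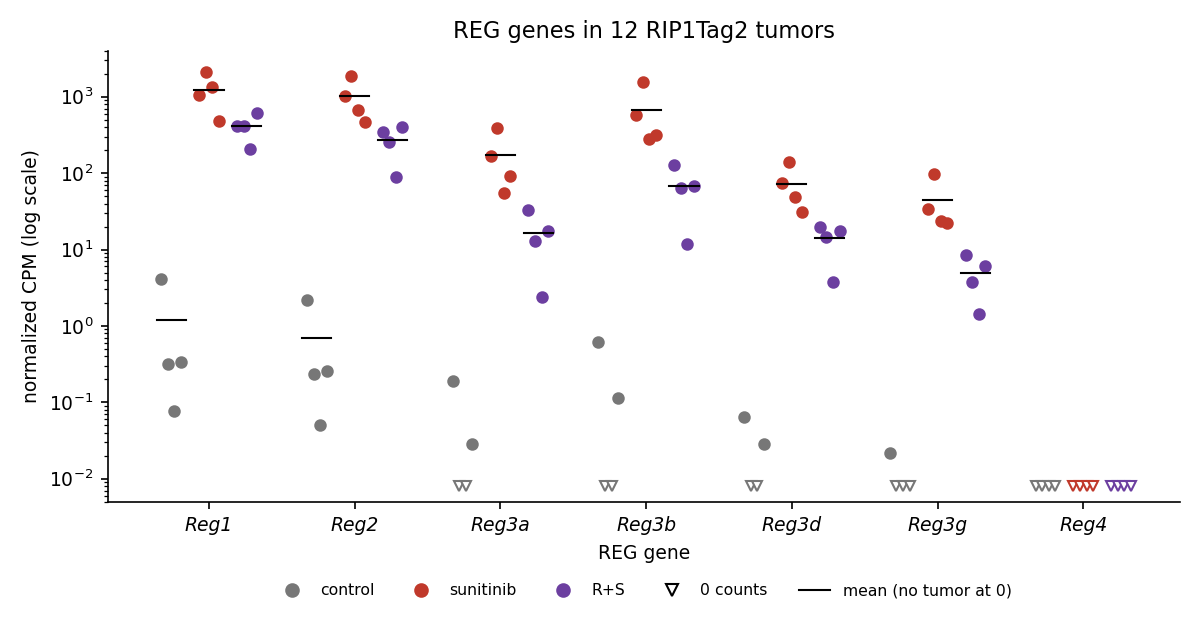
Normalized CPM (log axis) of the 7 REG genes in each of 12 tumors, with control tumors in gray, sunitinib in red and R+S in purple. Filled circles are tumors with at least 1 count, open triangles at the bottom are tumors with 0 counts, and black lines are group means where no tumor of the group had 0 counts. The control tumors lie below all treated tumors for each of 6 genes, and Reg4 has 0 counts in all 12.

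*Reg2*, the closest relative of *Reg1*, followed it. It had 103, 9, 2 and 9 counts in the control tumors, 472.9 to 1868 CPM in sunitinib and 89.9 to 402.6 CPM in R+S tumors. Sunitinib and R+S tumors did not overlap for *Reg2* but did for *Reg1*, whose lowest sunitinib value (sunitinib 12) lay below the highest R+S value (R+S 10).

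The pancreatitis-associated gene *Reg3b* was the third in abundance. Its counts were 29, 0, 0 and 4 in the control tumors. It reached 579.8, 1538, 278 and 316.3 CPM in sunitinib tumors 5, 6, 8 and 12, and 128.5, 64.5, 11.8 and 66.9 CPM in R+S tumors 4, 5, 7 and 10. The 3 groups did not overlap, and the lowest sunitinib tumor had more than the highest R+S tumor. *Reg3a* had 9, 0, 0 and 1 control counts, 55.1 to 387.1 CPM in sunitinib and 2.42 to 32.9 CPM in R+S tumors. *Reg3d* had 3, 0, 0 and 1 control counts, 30.8 to 139.4 CPM in sunitinib and 3.73 to 19.7 CPM in R+S tumors. For both, the treated groups were again separate.

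*Reg3g*, known as a bactericidal lectin of the gut, was the scarcest of the detected members. A single count, in control 1, was seen over the 4 control tumors, against 33.8, 98.5, 23.3 and 22.5 CPM in sunitinib tumors 5, 6, 8 and 12 and 8.52, 3.76, 1.41 and 6.07 CPM in R+S tumors 4, 5, 7 and 10. From summed CPM, sunitinib was 7148 times control, with a counting interval at 95% of 1283 to 282370, and R+S was 786 times control, with an interval of 141 to 31075. These intervals cover counting error only and rest on that 1 read. *Reg4*, a member of the intestine and stomach that is encoded apart from the others, had 0 counts in all 12 tumors, which at a limit of 3 counts per library allows up to 0.0642 to 0.0963 CPM.

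Fitted to all 12 tumors, the log2 fold changes of sunitinib over control were 9.95 (SE 1.19) for *Reg1* and 10.46 (SE 1.12) for *Reg2*. They were 11.40 (SE 1.24) for *Reg3a*, 11.71 (SE 1.29) for *Reg3b*, 11.34 (SE 0.94) for *Reg3d* and 12.19 (SE 1.06) for *Reg3g*. With control tumors at or near 0 counts, these values depend on the prior count of the fit and on control 1. Without control 1 they ran from 12.30 for *Reg1* to 14.08 for *Reg3b*, and without sunitinib 6 from 9.56 for *Reg1* to 11.45 for *Reg3g*. Of the 7 members, 6 passed the filter on low counts, through the treated groups alone, and all 6 were higher at an adjusted p under 0.05 and did not overlap between groups. Over all 16645 genes tested, 1.93% were called higher and 2.55% lower, and 5.17% were higher with no overlap. Nothing is read from the members' count, since this contrast chose them.

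For R+S over control the fitted log2 fold changes were 8.36 for *Reg1*, 8.58 for *Reg2*, 7.98 for *Reg3a*, 8.40 for *Reg3b*, 8.95 for *Reg3d* and 9.02 for *Reg3g*, with SEs of 0.91 to 1.17. Without control 1 they ran from 10.16 for *Reg3d* to 10.77 for *Reg3b*. Again 6 of 6 tested members were called higher with no overlap, where 1.55% of all genes were called higher, 2.61% lower, and 11.6% were higher with no overlap. Both comparisons use the same 4 control tumors, and nothing is read from this count either.

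Between the treated groups the members parted. R+S minus sunitinib was -1.59 (SE 0.82) for *Reg1* and -1.88 (SE 0.76) for *Reg2*. It was -2.39 (SE 0.55) for *Reg3d*, -3.17 (SE 0.61) for *Reg3g*, -3.32 (SE 0.86) for *Reg3b* and -3.42 (SE 0.80) for *Reg3a*. All members but *Reg1*, 5 of the 6 tested, were lower in R+S with no overlap, and the 4 Reg3 genes were called. Over all genes tested, 4.58% were called lower and 2.63% higher, and 9.73% were lower with no overlap. Both counts are descriptions, and the 4 calls depended on single tumors. None was made without R+S 4, without R+S 5 or without R+S 7. Only 1 was made without R+S 10 or without control 3, and none when the control tumors were left out of the fit. *Reg3b* was called in 4 of the 12 fits without 1 tumor, *Reg3a* and *Reg3d* in 7 each and *Reg3g* in 9. Over the 12 fits without 1 tumor, the difference ranged from -4.00 to -2.67 for *Reg3a*, from -3.82 to -2.53 for *Reg3b*, from -3.56 to -2.42 for *Reg3g* and from -1.85 to -1.21 for *Reg1*, the smallest without sunitinib 6 in each case.

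**Figure D2:**
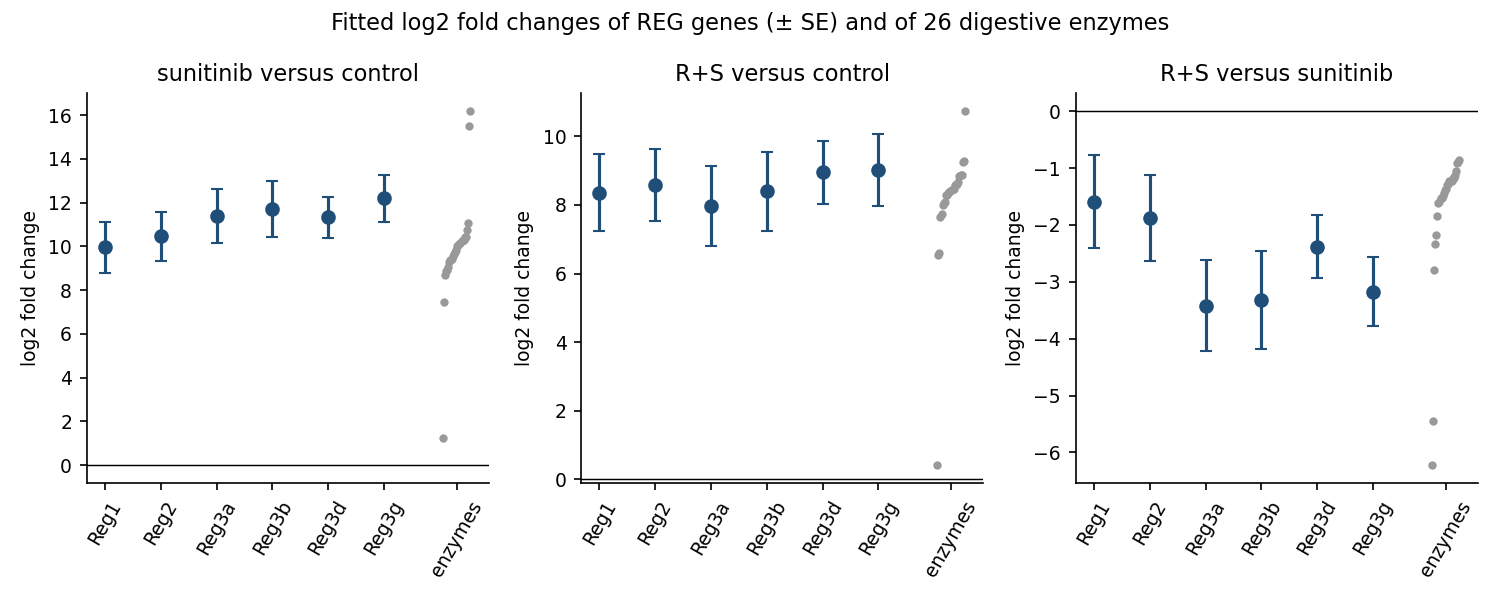
Fitted log2 fold changes (points) with their standard errors (bars) of 6 REG genes, and of the 26 tested digestive enzymes as gray dots without error bars, in the 3 comparisons. The panels have separate vertical axes, which in the third runs below 0; there Reg3a, at -3.42, lies below Reg1, at -1.59. The 2 uppermost gray dots in the first panel are Prss1 and Prss3, whose control tumors all had 0 counts.

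Per kilobase of exon, the order of the members' levels was *Reg1*, *Reg2*, *Reg3b*, *Reg3a*, *Reg3d* and *Reg3g* in sunitinib tumors, with medians of 1308, 890.1, 392.4, 156.9, 77.7 and 13.5 CPM per kb. In R+S tumors *Reg3d* and *Reg3a* changed places, and the medians of *Reg1*, *Reg2*, *Reg3b*, *Reg3d*, *Reg3a* and *Reg3g* were 455.4, 316.6, 57.5, 20.7, 18.4 and 2.32 CPM per kb. Neighbors in this order overlapped over the 4 tumors of a group in every case. Within a tumor the order was steadier: *Reg1* exceeded *Reg2*, *Reg2* exceeded *Reg3b* and *Reg3b* exceeded *Reg3a* in all 8 treated tumors, whereas *Reg3a* exceeded *Reg3d* in 5 of 8 (all 4 sunitinib tumors and R+S 4). The exon length of *Reg3g* includes an annotated transcript that retains an intron, which lowers its level per kb.

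The digestive enzymes, which acinar cells secrete, rose with the REG genes. Summed over 31 enzyme genes they amounted to 11.3 to 124.7 CPM in control tumors, 13179 to 47025 CPM in sunitinib tumors and 3482 to 19049 CPM in R+S tumors, with no overlap between control and treated tumors. Of the 31, 26 were tested: all 26 were called higher in sunitinib than in control (median log2 fold change 9.93, against 0.03 over all genes tested) and 24 in R+S (median 8.42, against 0.01). Without control 1 the medians were 12.44 in sunitinib, with 25 called, and 10.66 in R+S, with 23 called. Without sunitinib 6 they were 9.62, with 25 called, and 8.40, with 24 called. Among those most abundant in control tumors, the chymotrypsinogen *Ctrb1* rose by a log2 fold change of 10.44 (SE 1.497, adjusted p = 0.00151) with sunitinib, the elastase *Cela1* by 8.88 (SE 1.18, adjusted p = 0.000919), the lipase *Pnlip* by 9.38 (SE 1.60, adjusted p = 0.00480) and the salivary-type amylase *Amy1* by 1.26 (SE 0.32, adjusted p = 0.0463), all by edgeR. Without control 1 *Ctrb1* stood at 12.96 and *Pnlip* at 12.90, and the *Amy1* call was lost in 10 of the 12 fits without 1 tumor, control 1 and sunitinib 6 included. *Amy1* at 0.41 (adjusted p = 0.497) and *Prss3* at 9.28 (adjusted p = 0.0961) were the tested enzymes not called in R+S against control. The lipases *Cel*, *Pnliprp1* and *Pnliprp2* and the phospholipase *Pla2g1b* were among the largest rises in R+S, at 8.88, 8.88, 8.86 and 9.25 (adjusted p of 0.000241 to 0.00390), and the trypsinogen *Try5* was among the largest in sunitinib, at 11.08 (adjusted p = 0.000218). Of 11 further acinar genes, 8 were called higher in each treated group, among them *Spink1*, the trypsin inhibitor of the acinar cell (11.07 in sunitinib and 8.19 in R+S), *Gp2*, the main protein of the zymogen granule membrane (10.78 and 8.94), and the regulator *Ptf1a*, at 0 counts in the 4 control tumors and at 23 to 193 counts in the treated ones. Without control 1 *Spink1* stood at 15.69 and 12.81 and *Gp2* at 13.07 and 11.23. Not called in either treated group were the regulators *Bhlha15* (-0.16 in sunitinib and -0.14 in R+S) and *Nr5a2* (1.98 and 0.45), and *Gatm* (0.32 and 0.06). These 11 genes summed to 78.4 to 114.5 CPM in control, 1249 to 5309 CPM in sunitinib and 348 to 1675 CPM in R+S tumors. In control tumors the sum (mean 92.0 CPM) was mostly *Bhlha15* (mean 41.9 CPM) and *Gatm* (mean 44.5 CPM), which were not called. Control 1, the control tumor with the most REG counts (337 against 5 to 27), also had the most enzyme counts (5831 against 444 to 611). In bulk tumors, more acinar cells and more RNA per acinar cell cannot be told apart, and the part of acinar tissue in the rise of the REG genes was not tested.

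The REG genes were therefore also set against the enzymes of the same tumor. Together they made up 1.13 to 5.78 counts per 100 enzyme counts in control tumors, although on only 5 to 337 REG counts. *Amy1* alone had 7.76 to 13.05 CPM in the control tumors, and the enzyme sum was 11.3 to 17.2 CPM in control 2 to 4. Much of the sum in those 3 tumors was thus an enzyme that rose by only 1.26 with sunitinib, so their ratios and those of treated tumors rest on different enzymes. The values were 9.72, 13.0, 6.03 and 10.8 per 100 enzyme counts in sunitinib tumors 5, 6, 8 and 12, and 10.5, 5.32, 9.13 and 5.86 in R+S tumors 4, 5, 7 and 10. Every treated tumor but R+S 5 was above control 1, and the treated groups overlapped. Over the 12 tumors the family thus ranged from 1.13 to 13.0 counts per 100 enzyme counts, while the enzymes themselves ranged from 11.3 to 47025 CPM.

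*Reg1* relative to the enzymes did not separate the treated groups. It had 33.3 to 44.3 counts per 1000 enzyme counts in sunitinib and 28.8 to 59.98 in R+S tumors, and the medians differed by 0.08 on the log2 scale. *Reg2* had 16.9 to 39.7 in sunitinib and 17.7 to 38.6 in R+S tumors, and its log2 medians differed by -0.58 (R+S minus sunitinib). For both genes the groups overlapped widely.

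The Reg3 genes had lower medians relative to the enzymes in R+S than in sunitinib tumors. *Reg3b* had 19.3, 32.7, 6.99 and 24.0 counts per 1000 enzyme counts in sunitinib tumors 5, 6, 8 and 12, and 14.3, 4.48, 3.38 and 3.51 in R+S tumors 4, 5, 7 and 10. The log2 medians differed by -2.44 for *Reg3b*, by -2.78 for *Reg3a*, by -1.94 for *Reg3g* and by -1.19 for *Reg3d*. The groups nevertheless overlapped for all 4 genes, because sunitinib 8 lay low and R+S 4 lay high: *Reg3a* stood at 1.39 counts per 1000 enzyme counts in sunitinib 8 and at 3.65 in R+S 4, against 5.59 to 8.23 in the other sunitinib tumors and 0.695 to 0.916 in the other R+S tumors. Leaving out any single treated tumor kept the difference between -2.93 and -2.63 for *Reg3a* and between -2.62 and -2.26 for *Reg3b*.

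**Figure D3:**
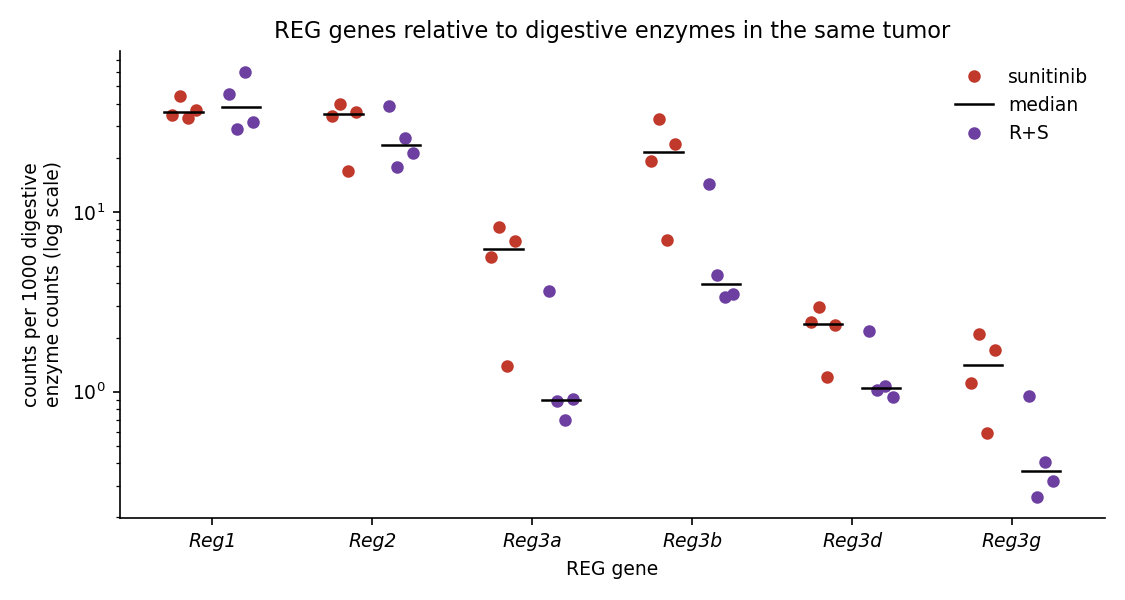
Counts of 6 REG genes per 1000 digestive enzyme counts of the same tumor (log axis) in sunitinib (red) and R+S tumors (purple), with group medians as black lines. Reg1 overlaps between the groups, whereas for Reg3a 3 R+S tumors lie below all sunitinib tumors and R+S 4 lies between.

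The spread of these ratios was wider for all 6 REG genes than for most enzymes, and widest for *Reg3a*, *Reg3b* and *Reg3g*. Over the 8 treated tumors the log2 ratio to the enzyme sum spanned 1.06 for *Reg1*, 1.24 for *Reg2*, 1.67 for *Reg3d*, 3.0001 for *Reg3g*, 3.27 for *Reg3b* and 3.56 for *Reg3a*. Single enzymes with at least 10 counts in every treated tumor, 25 in number, spanned a median of 0.78. Each enzyme is itself part of the sum, which can narrow its ratio, and the REG genes are not. Of the 25, 8 spanned more than *Reg1*, 7 more than *Reg2* and 5 more than *Reg3d*. Only the trypsinogens *Prss1* and *Prss3* spanned more than *Reg3b*, at 8.61 and 7.56. Only these 2 were further down in R+S relative to the sum than *Reg3b* and *Reg3g*, at -2.66 and -2.46. No enzyme was further down than *Reg3a*. *Prss1* and *Prss3* were also among the 3 enzymes called lower in R+S than in sunitinib, with log2 fold changes of -5.45 (SE 1.19, adjusted p = 0.0355) and -6.22 (SE 1.32, adjusted p = 0.0343). The third was *Try10*, at -2.17 (SE 0.46, adjusted p = 0.0283). These calls rested on single tumors: *Prss1* and *Prss3* were not called when any one of the R+S tumors was left out, *Prss1* also not without control 3, and *Try10* not without R+S 4, R+S 5 or R+S 7. None of the enzymes was called lower when the control tumors were left out of the fit. The median of the 26 was -1.38, close to the value of *Reg1*. *Try5*, at -2.80, and *Try4*, at -2.33, were not called. Of the 11 further acinar genes (median -1.64), edgeR called 2 lower and 0 higher. They were *Spink1* (-2.88, SE 0.63, adjusted p = 0.0299) and *Cuzd1* (-1.70, SE 0.46, adjusted p = 0.0472). The *Spink1* call was lost without sunitinib 8 or any one R+S tumor, and *Cuzd1* was called in 2 of 12 fits without 1 tumor. *Reg3d*, at -2.39, fell less than *Spink1* and *Try5*. As trypsinogens form a family of close copies, their counts are uncertain.

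The make-up of the family's counts shifted accordingly. *Reg3a* took 5.75, 6.33, 2.30 and 6.39% of the REG counts in sunitinib tumors 5, 6, 8 and 12, and 3.48, 1.67, 0.761 and 1.56% in R+S tumors 4, 5, 7 and 10, so that R+S 4 exceeded sunitinib 8. *Reg3g* took 0.972 to 1.61% in sunitinib and 0.445 to 0.901% in R+S tumors, again with sunitinib 8 and R+S 4 next to each other. *Reg3b* took 19.8, 25.2, 11.6 and 22.3% in sunitinib tumors 5, 6, 8 and 12, and 13.6, 8.42, 3.70 and 5.99% in R+S tumors 4, 5, 7 and 10. In the *Reg3b* share sunitinib 8 and R+S 4 lay nearer to each other than to any tumor of their own groups. The share of *Reg1* ran the other way, from 34.1 to 55.2% in sunitinib and from 43.2 to 65.7% in R+S tumors.

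**Figure D4:**
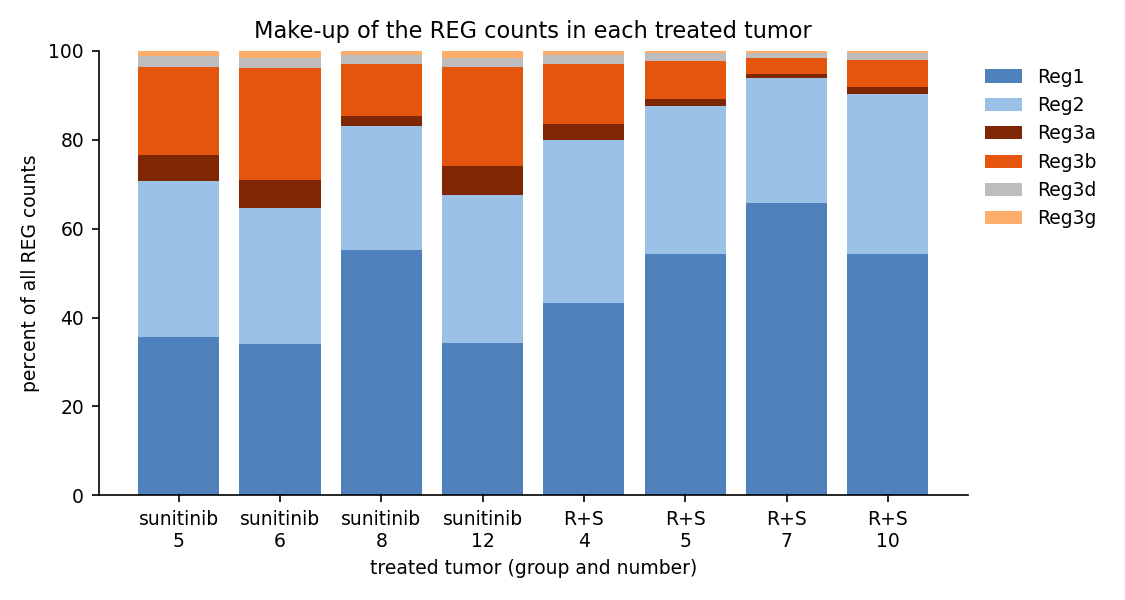
Percent of all REG counts taken by each of 6 members in each of the 8 treated tumors, as stacked bars that add to 100. The Reg3b share is 11.6 to 25.2% in the sunitinib tumors and 3.70 to 13.6% in the R+S tumors.

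Within the treated tumors *Reg3a* and *Reg3b* kept the most constant ratio of any pair of members, with an SD of the log2 ratio of 0.23 over the 8 tumors. *Reg3a* varied 159.9-fold and *Reg3b* 130.6-fold between R+S 7, the lowest, and sunitinib 6, the highest, yet the ratio of *Reg3a* to *Reg3b* counts stayed between 0.198 and 0.290 in sunitinib and between 0.199 and 0.261 in R+S tumors. The ratio of *Reg3b* to *Reg3g* was 11.9 to 17.2 in sunitinib and 8.33 to 17.1 in R+S tumors. By contrast *Reg1* varied 9.98-fold and the enzymes 13.5-fold over the same tumors, and the ratio of *Reg1* to *Reg3b* ran from 1.35 to 4.76 in sunitinib and from 3.17 to 17.7 in R+S tumors. *Reg3d* kept step less closely with *Reg3a* (SD 0.82) and *Reg3b* (0.66). Its SD of 0.51 to *Reg3g* was near the 0.50 of *Reg3a* to *Reg3g*. Each of these was wider than the 0.45 of *Reg1* to *Reg2*. *Reg2* and *Reg3d* formed another pair (SD 0.32), with 13.4 to 15.4 *Reg2* counts per *Reg3d* count in sunitinib and 17.4 to 24.1 in R+S tumors.

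**Figure D5:**
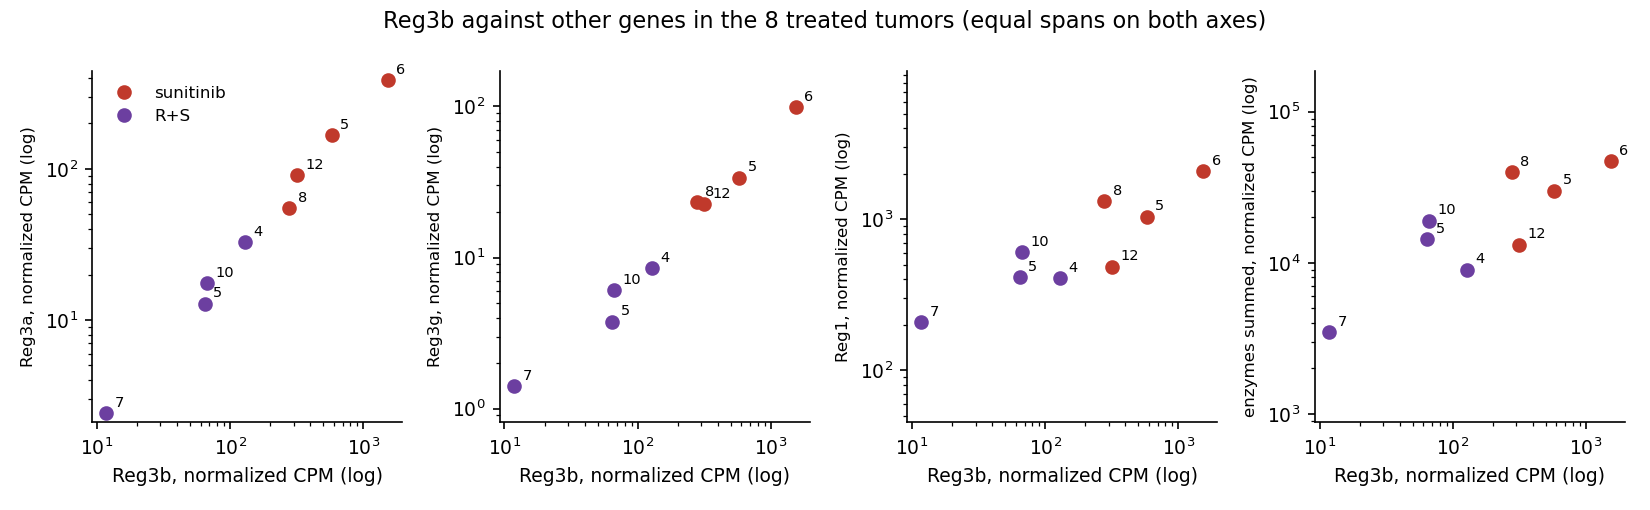
Normalized CPM of Reg3b (horizontal, log axis) against Reg3a, Reg3g, Reg1 and the summed digestive enzymes (vertical, log axes) in the 8 treated tumors, numbered as in the labels, with sunitinib in red and R+S in purple. Horizontal and vertical axes span equal folds in each panel, so a constant ratio is a diagonal line. Reg3a and, less exactly, Reg3g rise along such a line, and Reg1 and the enzymes rise less steeply.

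The genes most like each member were ranked by the SD, over tumors, of the difference in log2 CPM, a small SD meaning a near constant ratio. Over all 12 tumors and leaving the members out, acinar genes led for each. Nearest to *Reg1* were the pancreatic ribonuclease *Rnase1* (SD 0.40), *Cela3b* (0.43), *Gp2* (0.45), *Clps* (0.46) and *Prss2* (0.47), and the same 5 genes led for *Reg2* at 0.49 to 0.58. *Reg3d* and *Reg3g* were nearest to *Cuzd1*, a zymogen granule protein (0.59 and 0.84), and *Pla2g1b* (0.60 and 1.02), then *Amy2b*, *Serpini2* and *Cela1* for *Reg3d* and *Rbpjl*, *Serpini2* and *Aqp12* for *Reg3g*. *Reg3a* was nearest to *Spink1* (1.11), *Cela1*, *Amy2b*, *Pla2g1b* and *Try4*, and *Reg3b* to *Try4* (0.98), *Gp2*, *Try5*, *Cela3b* and *Spink1*. The step from control to treated tumors dominates these values.

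A ranking over the 8 treated tumors alone, added after the data had been seen and with members kept in, gave other neighbors. Of 14641 genes, the nearest to *Reg3a* was *Reg3b* (SD 0.23), followed by *Reg3g* (0.50) and *Reg3d* (0.82). The nearest to *Reg3b* were *Reg3a* (0.23), *Reg3g* (0.37) and *Reg3d* (0.66), and the nearest to *Reg3g* were *Reg3b*, *Reg3a* and *Reg3d*. The first gene outside the family was *Itih4* for *Reg3a* (0.95) and *Pkhd1l1* for *Reg3b* (0.81) and *Reg3g* (0.68). *Reg2* and *Reg3d* were nearest to each other (0.32). *Reg1* was nearest to *Cuzd1* (0.17) and *Tmed6* (0.21), with *Reg2* at rank 63 (0.45) and *Reg3b* at rank 11168 (1.33). Seen from *Reg3b*, with the same SD, *Reg1* was at rank 56, so a rank depends on the gene it is taken from. These are descriptions over 8 tumors, in which the treated groups and the tumors' acinar content differ together.

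IL-6 and IL-22 signaling acts upstream of Reg3 genes, and of 25 genes counted for it 21 were tested. In sunitinib against control 1 was higher and 0 lower: *Cebpb*, an acute-phase transcription factor, rose by a log2 fold change of 1.16 (SE 0.27, adjusted p = 0.0307). The list held 0 calls in this comparison without control 3, control 4 or sunitinib 12. In R+S against control edgeR called 0 (0 also with DESeq2), with 1 gene at an unadjusted p under 0.05. In R+S against sunitinib 1 was higher, the receptor *Il6ra* (log2 fold change 1.89, SE 0.50, adjusted p = 0.0452), and the list held 0 calls without any single control or R+S tumor or without sunitinib 12. Its median log2 fold changes were -0.0036, 0.22 and 0.11 in the 3 comparisons, against 0.03, 0.01 and -0.02 over all genes tested.

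*Stat3* itself ranged from 164.9 to 326.9 CPM over the 12 tumors and the shared receptor subunit *Il6st* from 69.1 to 133.6 CPM, and neither was called in any comparison (adjusted p of 0.427 or more by edgeR). *Socs3*, a feedback inhibitor induced by STAT3, was at 77.5 CPM in sunitinib 6, the tumor with the most of each Reg3 gene, and at 4.31 to 23.2 CPM in the other 11. Sunitinib tumors 8, 12, 5 and 6, in rising order of *Reg3b*, had 4.83, 7.64, 9.88 and 77.5 CPM of *Socs3*, the same order. R+S tumors 7, 5, 10 and 4, in rising order of *Reg3b*, had 8.43, 23.2, 7.65 and 8.79 CPM, which is not the same order. *Socs3* was not called (sunitinib against control 2.10, SE 0.80, adjusted p = 0.173). Without sunitinib 6 its log2 fold change in that comparison was 0.36, and in R+S against sunitinib it turned from -1.05 to 0.69. *Il6ra* was lowest in sunitinib 6, at 7.88 CPM, against 20.8 to 69.7 CPM in the other sunitinib tumors, 53.2 to 95.9 CPM in control and 101.7 to 165.1 CPM in R+S tumors. The receptor subunit *Il22ra1* had 0 to 108 counts per tumor, and the ligands *Il6* and *Il22* stayed at or below 0.333 and 0.107 CPM in every tumor.

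The receptor candidate *Extl3* was present throughout, at 50.8 to 63.4 CPM in sunitinib, 62.8 to 72.0 CPM in control and 74.2 to 86.8 CPM in R+S tumors. It was higher in R+S than in sunitinib by 0.46 (SE 0.10, adjusted p = 0.0325), a call lost when control 3, sunitinib 12 or any one R+S tumor was left out. It was not called in sunitinib (-0.21, SE 0.10, adjusted p = 0.304) or in R+S (0.25, SE 0.10, adjusted p = 0.204) against control. Of the 4 genes listed as receptor candidates and downstream genes, the cyclin *Ccnd1* was the only other called. It fell with sunitinib (-2.88, SE 0.25, adjusted p = 4.75e-05) and with R+S (-3.002, SE 0.26, adjusted p = 0.000129), while *Atf2* and *Egfr* were not called.

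Markers of other cells that make REG proteins or that change in injured pancreas were counted beside the family. Of 16 acute-phase and injury genes 10 were tested. The secreted chaperone *Clu* was higher in sunitinib than in control (3.04, SE 0.73, adjusted p = 0.0367), the serum amyloid *Saa3* was lower in R+S than in sunitinib (-4.79, SE 1.17, adjusted p = 0.0369), and the medians of the 10 were 0.73, -0.70 and -1.29 in the 3 comparisons. *Clu* was not called without sunitinib 6 (2.36, adjusted p = 0.0631) and in 7 other of the 12 fits without 1 tumor. *Saa3* was not called when control 2, control 3, sunitinib 12 or any one R+S tumor was left out. Of 8 duct genes 7 were tested, and *Sox9* (3.81, adjusted p = 0.0250), *Muc1* (2.78, adjusted p = 0.00449) and the secreted *Spp1* (3.10, adjusted p = 0.0350) were higher in sunitinib than in control, with 0 called in R+S against control (3 at an unadjusted p under 0.05, edgeR; 3 called without sunitinib 6). The *Spp1* call was lost without sunitinib 6 (2.77, adjusted p = 0.0528) and 5 other tumors in turn, and the *Sox9* call without control 2, 3 or 4. Of 7 intestinal genes 5 were tested, and only the goblet-cell mucin *Muc2* was called, higher in sunitinib than in control (5.52, SE 1.15, adjusted p = 0.0176), at 0.396 to 14.7 CPM over the sunitinib tumors, and not without control 2, 3 or 4. Without sunitinib 6 the log2 fold change of sunitinib over control was 2.68 for *Sox9* and 4.33 for *Muc2*. *Clu* was highest in sunitinib 6 (695.1 CPM) and sunitinib 8 (418.8 CPM). Of these tumors, the first had the most and the second the least *Reg3a* of the group. Summed over its list, the injury group ran from 61.6 to 312.7 CPM in control, 251.3 to 901.2 CPM in sunitinib and 104.8 to 199.7 CPM in R+S tumors. The duct group ran from 388.2 to 509.3, 257.0 to 620.9 and 369.9 to 466.9 CPM, and the intestinal group from 42.6 to 117.6, 12.4 to 82.8 and 27.0 to 130.2 CPM, so the sums of both overlapped between all groups. Each sum was mostly 1 gene, the keratin *Krt7* (364.2 to 479.2 CPM in control and 38.1 to 454.0 CPM in sunitinib tumors) and *Olfm4* (41.0 to 116.3 and 1.46 to 81.1 CPM). The other duct genes summed to 22.0 to 55.0 CPM in control, 81.6 to 218.9 CPM in sunitinib and 51.1 to 72.2 CPM in R+S tumors, higher in every sunitinib tumor than in any other, and the median log2 fold change of the 7 tested was 2.78 in sunitinib against control. The other intestinal genes summed to 1.11 to 1.80, 1.77 to 19.5 and 1.49 to 2.65 CPM. The part of these cells in the REG levels was not tested.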

How the data were processed

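Total RNA (miRNeasy) of 12 tumors had been sequenced from stranded poly(A) libraries (Illumina TruSeq). Per the submitters' processing notes, cutadapt 1.2.1, TopHat2 2.0.9, HTSeq 0.5.4p3 and GRCm38 were used. The annotation release and the strand setting are not given in the sources used here. The authors deposited 1 table per tumor of raw gene counts, whole numbers without normalization. Reads aligning to several places had not been counted, and reads on no gene or on several genes came to 12.07 to 19.49% of the reads that could be assigned, which were left out. Of 38924 identifiers, 37607 matched a symbol in GENCODE M21 (GRCm38), from which coordinates and coding sequences were taken. Promoters are from RefSeq (GRCm38.p6), with 7 of 7 members matched.

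The members and all gene lists were chosen with earlier results of these data known. Of the genes listed for IL-6 and IL-22 signaling 1 is not reported here and was left out of that list's counts. After TMM scaling, edgeR 4.0.16 (R 4.3.3, limma 3.58.1) gave robust quasi-likelihood F-tests in 1 fit of 12 tumors with 3 groups and 3 contrasts. The filter was filterByExpr (minimum count 10, minimum total 15), which left 16645 genes, and p-values were adjusted by Benjamini-Hochberg over all of them at a threshold of 0.05. An SE is the absolute log2 fold change over the square root of F. Ratios to the enzymes used counts plus 0.5, and log2 CPM used a prior count of 2. Named genes were the members, the 4 enzymes highest in control tumors, 6 signaling and receptor genes, up to 6 other list genes per contrast by size among those called, and the 5 genes nearest to each member, leaving out predicted genes. *Cebpb*, *Ccnd1*, *Clu*, *Sox9*, *Muc1*, *Spp1*, *Muc2*, *Ptf1a* and the genes of the ranking over 8 tumors were named after their values were seen. So were *Bhlha15*, *Gatm* and *Nr5a2*. No pair of tumors in a group differed by as little as counting noise. The fit was tested on simulated counts.

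Alternatives were DESeq2 1.42.0, 3 other normalizations, acinar and REG genes left out of library sizes, no filter or a stricter one, only the 8 tumors of a contrast, each tumor left out, counts summed by label code, a threshold of 0.01, and other denominators or a prior count of 2 for the ratios. The joint omission of control 1 and sunitinib 6 and the ranking over the 8 treated tumors were added after seeing the data. Whether tumors are separate mice is not stated in the labels, so p-values measure the spread between these tumors.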

Additional observations from a re-analysis of the deposited data

Results flagged for a closer look

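Of 33 groups of 4 tumors examined for a tumor far from the other 3, 3 were flagged, where chance alone flags about 1 in 20. R+S 4 had more *Reg3a* relative to the digestive enzymes than the other R+S tumors, with a log2 ratio of -8.10 against -10.09 for the nearest of them, a gap that took 0.836 of the group's range. The same tumor stood out for *Reg3d*, with a log2 ratio of -8.83 against -9.86 and a gap of 0.832 of the range. For *Reg3g* in control tumors the gap took the whole range (1), because control 1 had 1 count and the other 3 had 0. No explanation of these values was tested.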

How the results depend on the processing

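No paired analysis was made, because the labels give no pairing of tumors between groups. In both treated groups against control, all 6 tested REG genes were called higher under each alternative that tested them. None of them was tested once each tumor had to hold at least 10 counts, which also left 3 enzymes called in each treated group. In R+S against sunitinib the 4 REG calls by edgeR became 1 without a filter, 0 with only the 8 tumors of the comparison, 2 with label codes summed, 0 at an adjusted p under 0.01, and 0 to 4 without single tumors, while DESeq2 also called 4. No member's fold change changed sign. The 3 enzyme calls in this comparison became 5 with DESeq2, 5 without control 1 and sunitinib 6, 1 without a filter or with codes summed, and 0 under the stricter filter, in the fit of 8 tumors or at 0.01. They ranged from 0 to 5 without single tumors. The 1 signaling call became 6 with DESeq2, 2 with the stricter filter, and 0 without a filter, in the fit of 8 tumors or at 0.01, and ranged from 0 to 3 (without sunitinib 5) without single tumors. In sunitinib against control the 1 signaling call became 3 with DESeq2, 2 with upper-quartile scaling, DESeq2 size factors or acinar and REG genes left out of library sizes, 1 lower and 0 higher with codes summed, and 0 in the fit of 8 tumors or at 0.01, with 0 to 2 (without R+S 5, sunitinib 5, sunitinib 6 or sunitinib 8) without single tumors. In R+S against control the 0 became 1 without control 1 and sunitinib 6. The *Reg1* ratio to the enzymes, 0.08 between log2 medians, turned to -0.24 with 4 enzymes as the denominator and ranged from -0.17 (without R+S 4 or R+S 7) to 0.34 without single tumors. Over all genes, 745 were called in sunitinib against control, 1477 with DESeq2, 408 with the stricter filter, 380 in the fit of 8 tumors, 360 at 0.01 and 440 to 902 without single tumors. In R+S against control 693 were called, 1688 with DESeq2, 2557 in the fit of 8 tumors, 245 at 0.01, 1437 without control 1 and sunitinib 6, and 292 (without control 3) to 1627 (without sunitinib 6). In R+S against sunitinib 1200 were called, 3008 with DESeq2, 501 without a filter, 3 in the fit of 8 tumors, 0 at 0.01 (5067 at an unadjusted p under 0.05), and 0 (without R+S 5) to 2861 (without sunitinib 5). The causes of these changes were not tested.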

Other observations

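Of 14 other secreted lectins and mucosal defense genes 9 were tested, and edgeR called 0 in each of the 3 comparisons, with 2, 3 and 4 at an unadjusted p under 0.05. Of 10 leukocyte genes 9 were tested: the macrophage marker *Adgre1* was lower in sunitinib than in control (log2 fold change -1.14, SE 0.20, adjusted p = 0.00509) and the myeloid integrin *Itgam* was lower in R+S than in sunitinib (-2.20, SE 0.57, adjusted p = 0.0431), a call lost in 10 of the 12 fits without 1 tumor. Of 6 genes of other islet cells 5 were tested and edgeR called 0 in each comparison, with 2, 1 and 3 at an unadjusted p under 0.05. All 10 beta-cell genes were tested with 0 called, of which 0, 1 and 0 had an unadjusted p under 0.05. The 6 endothelial genes were all lower in sunitinib (median -3.23) and in R+S (median -2.28) than in control, and 4 were called higher in R+S than in sunitinib, each of them lost when any one R+S tumor was left out.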
